A study of Homo sapiens with 6 samples.

Results

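ID1, ID2, ID3 and ID4 are the 4 members of the human ID family, and they were found by gene symbol and Entrez gene ID among the 27257 genes of the library tables. The data are RNA-seq of the established human cell line U87MG, a glioblastoma line grown in DMEM with 10% FBS. The U87MG-control group (n = 3 libraries) received a control lentivirus and the U87MG-LMO2 group (n = 3 libraries) a lentivirus carrying LMO2, each for 24 h. The study used the comparison to look for genes that change with LMO2-STAT3 signaling, and it picked ID1 from these same libraries, so the ID1 values below are no independent evidence of its direction. Both groups are 1 cell line, and no source used here says that the replicates came from separate cultures, so the p-values measure only the spread between these libraries.

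ID proteins carry a helix-loop-helix domain but lack the basic region that contacts DNA. They pair with E proteins (TCF3, TCF4 and TCF12), the common partners of tissue-specific basic helix-loop-helix (bHLH) factors, and so keep those factors off DNA. The ID genes are direct targets of bone morphogenetic protein (BMP) signaling through SMAD1, SMAD5 and SMAD9, and ID1 is also known as a target of STAT3. In neural stem cells and glioma, ID proteins are known for holding cells in an undifferentiated state.

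The libraries held 11428432 to 13537284 expected counts in U87MG-control and 14630627 to 17892955 in U87MG-LMO2, so each U87MG-LMO2 library was the deeper. LMO2, the overexpressed gene, had 5 to 11 counts in the control libraries and 4503 to 14570 in the U87MG-LMO2 libraries, as labelled. Of 10 astroglial and glioma markers, VIM, CD44 and NES were at 40.1 CPM (the expected count scaled to the TMM-adjusted library size) or more in every library, OLIG2 was at 0.409 to 1.06 CPM, SOX2, S100B, AQP4, FABP7 and ALDH1L1 were at or near 0, and GFAP was not analysed here. Of 8 measured markers of other cell types, only CD68 and PECAM1 exceeded 1 CPM in every library, and MBP reached 1.022 CPM in U87MG-LMO2 replicate 2. A library of each group stood apart. U87MG-control replicate 1 differed from the other control libraries with an SD of log2 differences over genes of 0.419 and 0.421, against 0.320 between those, and U87MG-LMO2 replicate 3 differed from its group by 0.505 and 0.580, against 0.354. The table of U87MG-LMO2 replicate 3 was also damaged for 134 genes, none of them an ID gene.

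The promoters of the 3 expressed members are shown because the study places ID1 downstream of STAT3 and the ID genes share BMP-SMAD control. Each line gives the 250 bases before the RefSeq start (GRCh38.p14), 5′ to 3′ on the strand of the gene. Capitals mark the SMAD box (GTCT, or AGAC on the other strand) and the STAT element (TTCNNNGAA). ID1 is at chr20:31605039-31605288 (plus strand), ID2 at chr2:8681806-8682055 (plus strand) and ID3 at chr1:23559502-23559751 (minus strand).
ID1: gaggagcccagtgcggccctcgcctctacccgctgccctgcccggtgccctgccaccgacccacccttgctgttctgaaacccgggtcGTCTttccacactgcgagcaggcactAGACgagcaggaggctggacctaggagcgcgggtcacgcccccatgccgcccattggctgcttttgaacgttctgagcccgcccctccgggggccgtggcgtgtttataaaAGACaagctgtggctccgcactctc
ID2: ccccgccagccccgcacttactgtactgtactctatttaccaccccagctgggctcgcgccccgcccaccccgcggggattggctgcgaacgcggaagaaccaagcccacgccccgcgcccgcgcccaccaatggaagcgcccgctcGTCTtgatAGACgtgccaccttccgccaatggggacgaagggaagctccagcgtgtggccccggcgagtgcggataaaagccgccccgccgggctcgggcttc
ID3: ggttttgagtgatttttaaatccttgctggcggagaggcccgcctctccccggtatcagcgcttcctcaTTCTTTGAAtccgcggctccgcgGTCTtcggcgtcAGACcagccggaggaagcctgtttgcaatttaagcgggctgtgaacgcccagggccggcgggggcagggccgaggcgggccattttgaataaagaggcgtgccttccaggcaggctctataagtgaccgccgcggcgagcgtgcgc
The letters of the SMAD box occurred 3 times in ID1, 2 times in ID2 and 2 times in ID3, and this short motif was present in 77.6% of the 27305 promoters of the same length. The STAT element occurred once, in ID3, 181 bases before the start, and was present in 6.78% of all promoters. The palindromic GC-rich SMAD element (GGCGCC) occurred in none of the 4 ID promoters and in 16.1% of all promoters. The E-box (CANNTG), the site that E proteins bind, occurred once in ID2 and once in ID4 and was present in 62.2% of all promoters. All 4 windows were richer in G and C than the median promoter (58%), with 66% in ID1, 69.2% in ID2, 62% in ID3 and 78.8% in ID4. The motifs were searched on both strands, and sites farther from the start lie outside these windows. The study predicted STAT3 binding sites over a longer stretch upstream of ID1. Its reporter of that stretch was raised by active STAT3 and by LMO2. The exact motif in these 250 bases does not test those sites.

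In U87MG-LMO2, ID1 and ID2 were higher in every library than in any control library, ID3 overlapped between the groups and ID4 was near the detection limit in both. None of the 3 tested members passed an adjusted p of 0.05 in edgeR, where 7.48% of the 16092 tested genes did. In U87MG-control replicate 1, ID1, ID2 and ID3 all stood at 19.8% to 24.5% of the mean of the other controls, and leaving that library out lowered each of the 3 log2 fold changes. Because these are bulk libraries, fewer cells with a transcript and less of it per cell cannot be told apart.

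ID1 (Entrez 3397) had 22.6, 120.5 and 108.5 CPM in U87MG-control replicates 1 to 3, and 205.1, 201.9 and 142 CPM in U87MG-LMO2 replicates 1 to 3. Every U87MG-LMO2 library was above every control. Between nearest values, the gap from control replicate 1 to the next control (22.6 to 108.5 CPM) exceeded that between the groups (120.5 to 142 CPM). The means were 83.9 ± 53.4 CPM in the controls against 183 ± 35.6 CPM with LMO2 (SD, n = 3 each), a 2.18-fold ratio. The edgeR log2 fold change was 1.12 (SE 0.48, 95% interval 0.02 to 2.22), with a p of 0.0461 before adjustment and an adjusted p of 0.186. Without control replicate 1 the log2 fold change was 0.67 (SE 0.18) and the edgeR adjusted p was 0.118. Within U87MG-LMO2, ID1 was lowest in replicate 3, the library with the most LMO2 (877.9 CPM, against 333 and 307 CPM in replicates 1 and 2).

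ID2 (Entrez 3398) had 3.82, 17.6 and 13.6 CPM in the control libraries and 37.1, 27.1 and 19.4 CPM in the U87MG-LMO2 libraries. The groups did not overlap, although the highest control (17.6 CPM) lay close to the lowest U87MG-LMO2 library (19.4 CPM). The means were 11.7 ± 7.08 CPM and 27.9 ± 8.87 CPM (SD, n = 3 each), a 2.39-fold ratio. edgeR gave a log2 fold change of 1.24 (SE 0.44, 95% interval 0.24 to 2.25), with a p of 0.0208 before adjustment and an adjusted p of 0.122. The call depended on 1 library: without U87MG-LMO2 replicate 3 the log2 fold change was 1.44 and the edgeR adjusted p was 0.0380, in a fit that called 7.97% of genes as higher. Without control replicate 1 it was 0.84 (SE 0.28), with an edgeR adjusted p of 0.179. An antisense gene, ID2-AS1, overlaps ID2, and it held 3 to 8 counts a library, against 44 to 608 for ID2.

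ID3 (Entrez 3399) had 29.2, 127.8 and 111.1 CPM in the controls against 170.3, 120.3 and 150.2 CPM with LMO2. U87MG-LMO2 replicate 2 lay below control replicate 2, so the groups overlapped. The means were 89.4 ± 52.8 CPM and 146.9 ± 25.2 CPM (SD, n = 3 each). The log2 fold change was 0.72 (SE 0.43, 95% interval -0.26 to 1.69), with an edgeR adjusted p of 0.330. Without control replicate 1 it fell to 0.30 (SE 0.16), with an edgeR adjusted p of 0.368.

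ID4 (Entrez 3400) had 2 counts in each control library and 6, 5 and 6 counts in U87MG-LMO2 replicates 1 to 3. It did not pass the filter on low counts. Summed over libraries, 17 of 48665606 counts against 6 of 38052704 gave a rate ratio of 2.22 (exact 95% interval 0.833 to 6.86, counting error only). The interval includes no difference, and each control library was under the 3 counts that a count of 0 allows. These counts therefore do not settle whether ID4 changed. An antisense gene overlaps ID4 too, and the strand of the reads is not given in the sources used here.

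**Figure D1:**
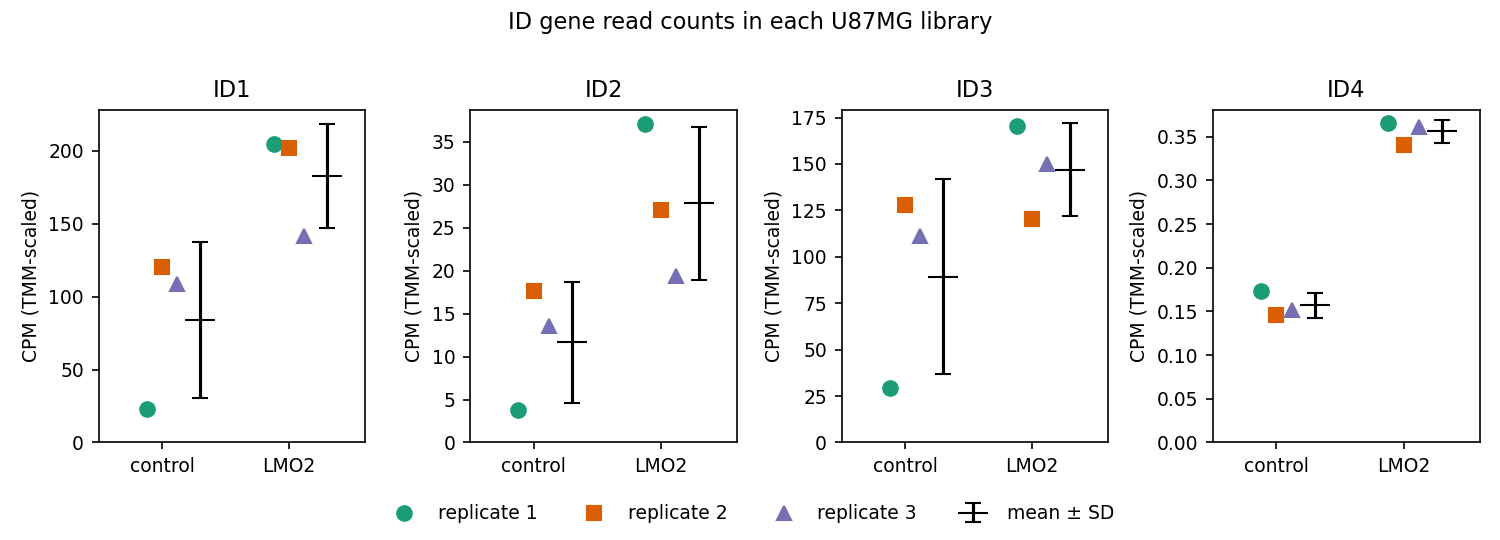
Points show TMM-scaled CPM of each ID gene in the 3 U87MG-control and 3 U87MG-LMO2 libraries, with the replicate number as the marker and the mean ± SD (n = 3) in black, on axes that start at 0. ID1, ID2 and ID3 are lowest in control replicate 1 (22.6, 3.82 and 29.2 CPM), and ID4 stays below 0.37 CPM throughout.

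Of the 3 tested members, 2 had groups that did not overlap with U87MG-LMO2 the higher, and 17.5% of all tested genes did. The same 2 members, ID1 and ID2, had an unadjusted edgeR p under 0.05, which 13.8% of all tested genes had in the higher direction. No alternative setting gave a negative log2 fold change for ID1, ID2 or ID3.

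**Figure D2:**
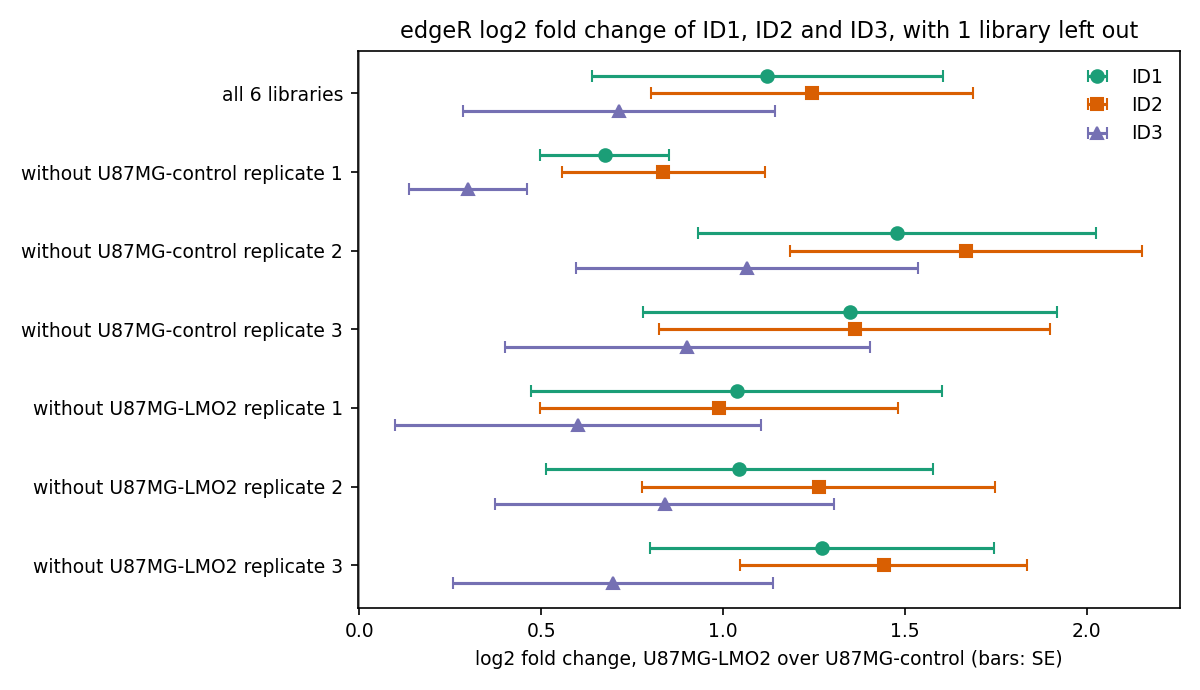
The x axis gives the edgeR log2 fold change of U87MG-LMO2 over U87MG-control for ID1, ID2 and ID3, with all 6 libraries and with each library left out in turn, and bars give the SE. The values are lowest without control replicate 1 (0.67, 0.84 and 0.30) and highest without control replicate 2 (1.48, 1.67 and 1.06).

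Few other genes were as low in U87MG-control replicate 1 as ID1, ID2 and ID3. Its log2 CPM minus the mean of its mates was -2.33 for ID1, -1.97 for ID2 and -2.02 for ID3, where the SD over all tested genes was 0.388. Of the 16092 tested genes, 22 lay at least as far below as ID1, 34 as ID2 and 29 as ID3. Each count includes the gene itself and any ID gene lower than it. Control replicate 1 was already known to be low when the family was chosen, so these counts describe that library and are no test. Within U87MG-LMO2 the lowest departures were smaller, at -0.52 for ID1 and -0.70 for ID2 in replicate 3, and -0.41 for ID3 in replicate 2. CD68 was also higher in control replicate 1 (524.5 CPM) than in the other controls (391.6 and 393.8 CPM), and the summed level of the other cell markers was 530.6 CPM against 398.5 and 401 CPM. CD68 was higher still in U87MG-LMO2 replicate 3 (570.1 CPM, with a summed level of 575.8 CPM), where ID1, ID2 and ID3 had 142, 19.4 and 150.2 CPM. Its part in the ID values was not tested. Ribosomal RNA genes held 0.118% of the counts of control replicate 1, within the 0.0710% to 0.128% of the 6 libraries.

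ID1, ID2 and ID3 were all lowest in control replicate 1, whereas within U87MG-LMO2 ID3 did not follow ID1: replicate 2 departed from its mates by 0.24 for ID1 and -0.41 for ID3, and replicate 3 by -0.52 and 0.07. ID1 spanned 9.06-fold over the 6 libraries, ID2 9.72-fold and ID3 5.83-fold. The log2 difference between ID1 and ID2 was 2.78 ± 0.22 in U87MG-control and 2.75 ± 0.24 in U87MG-LMO2 (SD, n = 3 each), so the pair kept its ratio to within 0.53 over all libraries (2-sided exact permutation p = 0.8). ID1 minus ID3 was -0.16 ± 0.18 in the controls and 0.31 ± 0.42 in U87MG-LMO2 (exact permutation p = 0.2), and ID2 minus ID3 was -2.94 ± 0.09 and -2.44 ± 0.45 (exact permutation p = 0.3). With 3 libraries a group the lowest p these tests can give is 0.1, and adjusted over the 3 pairs the exact permutation values were 0.8, 0.45 and 0.45. These tests could therefore not pass 0.05 and do not show that the ratios were alike. Both ratios with ID3 overlapped between the groups, and ID1 minus ID3 ranged over 1.12 across the 6 libraries.

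Among 11409 genes with a mean of at least 5 CPM, the pattern most like ID1 over the 6 libraries was that of ID2, with a root mean square difference of 0.195 in centred log2 CPM. CGB8, a subunit gene of chorionic gonadotropin, came next at 0.258, with 16.0, 68.9 and 60.9 CPM in the controls and 155.3, 192.5 and 96.2 CPM in U87MG-LMO2. The CGB genes are near-identical copies, so how their reads were split is uncertain. ID3 followed at 0.352. The nearest genes to ID2 were ID1, CGB8 (0.291) and FGD3 (0.328), a guanine nucleotide exchange factor for a small GTPase. FGD3 was higher in U87MG-LMO2, by 1.43 on the log2 scale with an edgeR adjusted p of 0.0361. The nearest to ID3 were MXRA8 (0.301), a cell adhesion protein, PRH1-PRR4 (0.337), a readthrough gene, and ID1. For ID4 the nearest genes were TPRXL, ENAH and SLC35H1, but 2 to 6 counts a library carry too little pattern for that order to be read. These likenesses describe 6 libraries of the same cells, and no test was made of them.

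The level per gene length (FPKM) set the order of the family. ID1 had 22.9, 122.9 and 110.7 FPKM in the control libraries and 209, 203.3 and 132.5 FPKM in the U87MG-LMO2 libraries. ID3 had 23.8, 104.3 and 90.5 FPKM in U87MG-control and 139.7, 97.4 and 112.2 FPKM in U87MG-LMO2. ID1 and ID3 were close: ID3 was the higher in control replicate 1, ID1 was the higher in the other 5 libraries, and their ranges overlapped. ID2 lay well below both, with 2.77, 12.8 and 9.82 FPKM in U87MG-control and 27.1, 19.5 and 12.9 FPKM in U87MG-LMO2. ID4 was at 0.04 FPKM in every control library and 0.09 FPKM in every U87MG-LMO2 library. ID1 made up 46.2% to 63.5% of the summed FPKM of the family.

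The E proteins, which the ID proteins bind, varied less between libraries than the ID genes. TCF3 was the most abundant, with group means of 77.4 ± 2.08 and 76.3 ± 3.59 FPKM (SD, n = 3 each) and an edgeR log2 fold change of 0.02 (adjusted p 0.901). TCF12 had means of 19.2 ± 1.11 and 22.3 ± 1.998 FPKM and a log2 fold change of 0.18 (edgeR adjusted p 0.275). TCF4 was the lowest, at 3.04 ± 0.28 and 4.06 ± 0.82 FPKM, with a log2 fold change of 0.44 (edgeR adjusted p 0.112). None of the 3 passed the test. In CPM, TCF4 and TCF12 were higher in every U87MG-LMO2 library than in any control, as were 17.5% of all tested genes. In FPKM, TCF4 overlapped between the groups. The summed FPKM of the E proteins, most of it from TCF3, stayed between 97.8 and 105.5 in the 6 libraries. The summed FPKM of the ID genes ran from 49.5 in control replicate 1 to 375.8 in U87MG-LMO2 replicate 1. The ratio of the sums was 0.506, 2.34 and 2.14 in U87MG-control and 3.56, 3.20 and 2.51 in U87MG-LMO2. The groups did not overlap in this ratio of transcripts, and control replicate 1 was the only library in which E protein transcripts exceeded ID transcripts.

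**Figure D3:**
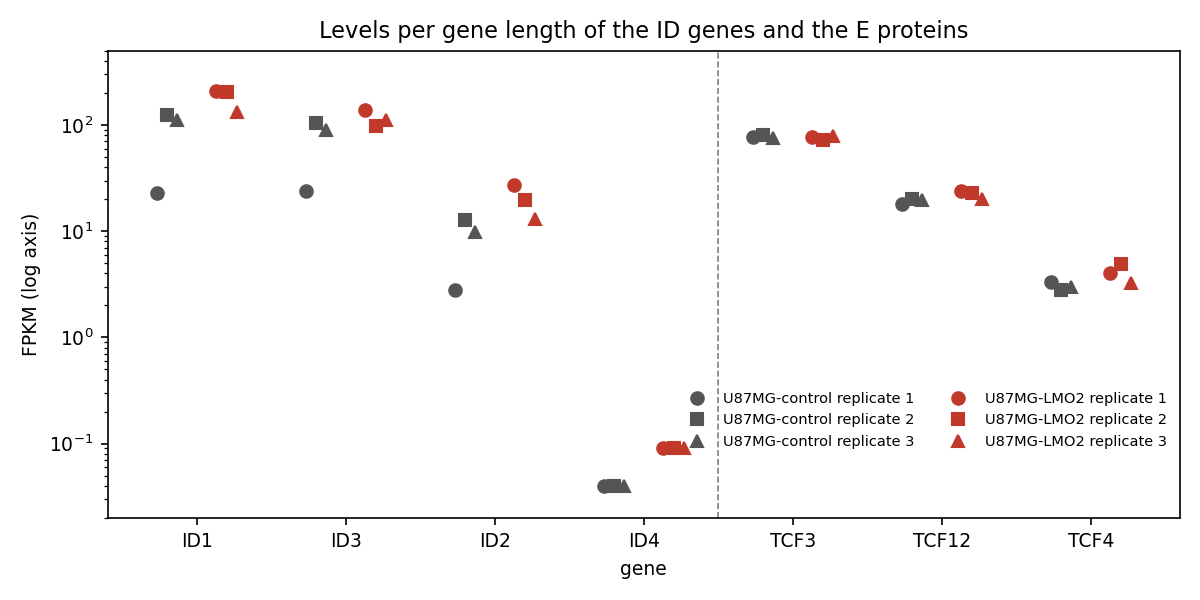
The y axis gives FPKM on a log scale for the 4 ID genes and the 3 E protein genes in each library, with grey for U87MG-control, red for U87MG-LMO2 and the marker for the replicate. ID1 and ID3 span 22.9 to 209 FPKM across libraries, while the summed E protein level stays between 97.8 and 105.5 FPKM.

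The tissue-specific bHLH factors pair with E proteins and compete with the ID proteins for them. Of 37 listed, 20 had a line in the tables used here and 9 were tested, of which 4 were higher in U87MG-LMO2, against 4.72% of all tested genes, and none was lower, against 2.75%. ATOH8, which is also a BMP target, had 6.94, 32.8 and 34.6 CPM in the controls and 143.8, 111.9 and 96.7 CPM in U87MG-LMO2, and its log2 fold change was 2.24 (edgeR adjusted p 0.0280). TWIST1, a regulator of mesenchymal fate, was higher by 0.74 (edgeR adjusted p 0.0188), TWIST2 by 1.12 (edgeR adjusted p 0.0444) and MSC, a repressor of the same class, by 1.14 (edgeR adjusted p 0.0359). LYL1, which pairs with E proteins in complexes that LMO2 bridges in blood cells, was at 186.4 ± 9.48 CPM in the controls against 198.4 ± 20.5 CPM with LMO2 (SD, n = 3 each; edgeR adjusted p 0.634). TAL1, the best known partner of that kind, had at most 0.146 CPM in any library. Fits without 1 control library called 0 to 2 of the 9 genes, and the fit without U87MG-LMO2 replicate 1 called 0. Over all genes, the former called 102 to 123 as higher and the latter 177.

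Other proteins that ID family members bind gave no call: none of 8 tested genes passed, among them RB1, RBL1 and RBL2, the retinoblastoma family, and ELK1, ELK3 and ELK4, ETS factors of the serum response. HES1, a Notch-controlled repressor, had 0.174, 1.24 and 0.681 CPM in the controls and 3.29, 2.59 and 1.20 CPM in U87MG-LMO2 (edgeR adjusted p 0.0966). Of 4 genes of ID protein turnover, FZR1, an activator of the ubiquitin ligase APC/C, was higher, with 129.4 to 139.3 CPM in U87MG-control, 179.4 to 186.6 CPM in U87MG-LMO2 and a log2 fold change of 0.44 (edgeR adjusted p 0.0263), where 4.72% of all tested genes were higher. FZR1 was called in 2 of 6 fits that left out 1 library, those without U87MG-LMO2 replicate 2 or 3, with edgeR adjusted p up to 0.114. USP1, a deubiquitinase of ID proteins, had 31.6 to 33.8 CPM in the controls and 35.8, 40.4 and 17.7 CPM in U87MG-LMO2 (edgeR adjusted p 0.896). The remaining turnover genes went the other way from FZR1 without passing. The log2 fold change was -0.351 for WDR48 (edgeR adjusted p 0.117) and -0.345 for COPS5 (edgeR adjusted p 0.0741). Both were lower in every U87MG-LMO2 library than in any control, as were 16.6% of all tested genes. Protein levels were not measured in these libraries.

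Upstream of the ID genes, 2 of the 19 tested ligands, receptors and SMADs of the BMP pathway passed the test, against 7.48% of all tested genes. None of 6 tested BMP ligands passed, and the most abundant, GDF5, had 40.6 to 60.5 CPM in the controls against 59.5 to 76.3 CPM with LMO2 (edgeR adjusted p 0.0946). BMP7 had 6.77 to 7.36 CPM in the controls against 4.66 to 5.86 CPM with LMO2, and BMP4 had no line in the tables used here. The receptor genes BMPR1A, BMPR2 and ACVR1 had 36.5 to 65.8 CPM in every library, and none of the 3 passed. BMPR1A and BMPR2 were lower in every U87MG-LMO2 library than in any control, as were 16.6% of all tested genes. Their log2 fold changes were -0.163 (edgeR adjusted p 0.349) and -0.285 (edgeR adjusted p 0.156). BMPR1B had 5.205 to 7.74 CPM in the controls against 4.76 to 6.47 CPM with LMO2 (edgeR adjusted p 0.333). Of 9 tested receptors and co-receptors, 2 co-receptors were higher: ENG (endoglin) by 0.72 (edgeR adjusted p 0.0368) and RGMB by 1.25 (edgeR adjusted p 0.0108). Of these 2 calls, 1 was left without control replicate 1, without control replicate 2 or without U87MG-LMO2 replicate 1, and 0 without control replicate 3. None of SMAD1, SMAD5, SMAD9 and the common SMAD4 passed, with SMAD5 and SMAD4 at 42.1 to 61.7 CPM and SMAD1 at 10.2 to 13.3 CPM. SMAD9 had 5.08, 8.25 and 9.99 CPM in the controls against 16.8, 13.8 and 9.13 CPM with LMO2 (edgeR adjusted p 0.133).

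The inhibitors of the pathway included several of its own targets. Of 7 tested inhibitors inside the cell, SMAD7 was higher, with 6.51, 17.4 and 15.7 CPM in the controls, 32.2, 42.1 and 32.7 CPM in U87MG-LMO2 and a log2 fold change of 1.42 (edgeR adjusted p 0.0301), against 4.72% of all tested genes. With 1 library left out it was called in 2 of 6 fits, those without control replicate 1 or U87MG-LMO2 replicate 3, with edgeR adjusted p up to 0.0902. SMAD6, the inhibitory SMAD most tied to BMP signals, had 3.12, 21.4 and 19.2 CPM in the controls against 65.8, 44.6 and 37.8 CPM with LMO2. Its groups did not overlap, and its log2 fold change of 1.75 had an edgeR adjusted p of 0.0759. Of 9 tested secreted antagonists, BMPER was higher by 0.49 (edgeR adjusted p 0.0422), against 4.72% of all tested genes. It was called in 1 of 6 fits that left out 1 library, that without U87MG-LMO2 replicate 3, with edgeR adjusted p up to 0.168. GREM1, an antagonist at 371.6 to 389.9 CPM in the controls, had 936.9, 1489 and 431.6 CPM in U87MG-LMO2 (edgeR adjusted p 0.0591).

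Among other genes that BMP-SMAD signals are known to induce, 15 of 19 listed were tested, of which 8 were higher in U87MG-LMO2 (4.72% of all tested genes) and 1 lower (2.75% of all tested genes). The list shares SMAD6, SMAD7, SMAD9, BAMBI, GREM1, NOG and ATOH8 with the lists above, and its median log2 fold change was 0.84, against -0.01 over all tested genes. This list, like the others, was chosen with earlier results of these data known. Its share and median are therefore a description and no test of BMP-SMAD targets as a set. Besides SMAD7 and ATOH8, the higher genes were the homeobox genes DLX1 (0.84, edgeR adjusted p 0.0408), DLX2 and DLX5, the bone regulator RUNX2 (0.51, edgeR adjusted p 0.0308), the T-box gene TBX3 (1.12, edgeR adjusted p 0.0290) and UNC5B, a netrin receptor (0.80, edgeR adjusted p 0.0494). DLX2 had 1.91, 5.33 and 4.16 CPM in the controls and 24.6, 22.6 and 7.47 CPM in U87MG-LMO2 (edgeR adjusted p 0.0302). DLX5 had 0 counts in every control library and 2.74, 1.84 and 1.51 CPM in U87MG-LMO2, at least 8.62-fold higher against a floor of 3 counts per library (edgeR adjusted p 0.00677). HEY1, a Notch and BMP target, was lower, at 4.86 to 5.19 CPM in the controls against 2.38 to 3.00 CPM with LMO2 (edgeR adjusted p 0.0261). MSX1, on the same list, had 5.90, 8.62 and 7.79 CPM in the controls against 5.37, 3.82 and 3.19 CPM with LMO2. Its groups did not overlap, and its log2 fold change of -0.853 had an edgeR adjusted p of 0.0656.

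Several of these targets shared the low value of U87MG-control replicate 1 with the ID genes. That library was the lowest of the 6 for 9 of the 15 tested targets (60%), against 21.6% of all tested genes. These shares are not like for like, since a gene higher in every U87MG-LMO2 library has its lowest value among the controls. That held for 10 of the 15 targets, against 17.5% of all tested genes. Of the 9, RUNX2 and TBX3 departed from the other controls by only -0.145 and -0.144 on the log2 scale. Control replicate 1 held 15.4% of the mean of the other controls for SMAD6 and 20.6% for ATOH8, next to 19.8% for ID1, 24.5% for ID2 and 24.5% for ID3. SMAD7 stood at 39.3% and DLX2 at 40.2%. RUNX2 had 19.9 CPM against 22.5 and 21.6 CPM in the other controls. Other tested targets lay near or above the other controls, with log2 departures of 0.406 for UNC5B, 0.045 for GREM1, -0.068 for HEY1 and -0.134 for GATA3. Outside the list, HES1 (0.174 CPM in control replicate 1) stood at 18.05% of the other controls and SOCS3, a STAT3 target, at 97.5%. Any link of these values to BMP or STAT3 signals was not tested. Without control replicate 1 the fit called 3 of the 15 targets as higher and 0 as lower. Without either of the other controls or U87MG-LMO2 replicate 1 it called 1 as higher and 0 as lower. Without U87MG-LMO2 replicate 2 it called 3 and 1, and without U87MG-LMO2 replicate 3 it called 11 and 1. Over all genes, fits without control replicates 1, 2 and 3 called 123, 123 and 102 as higher and 46, 56 and 42 as lower. Those without U87MG-LMO2 replicates 1, 2 and 3 called 177, 579 and 1307 as higher and 48, 304 and 1102 as lower. The median log2 fold change of the list was 0.94 without control replicate 1.

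**Figure D4:**
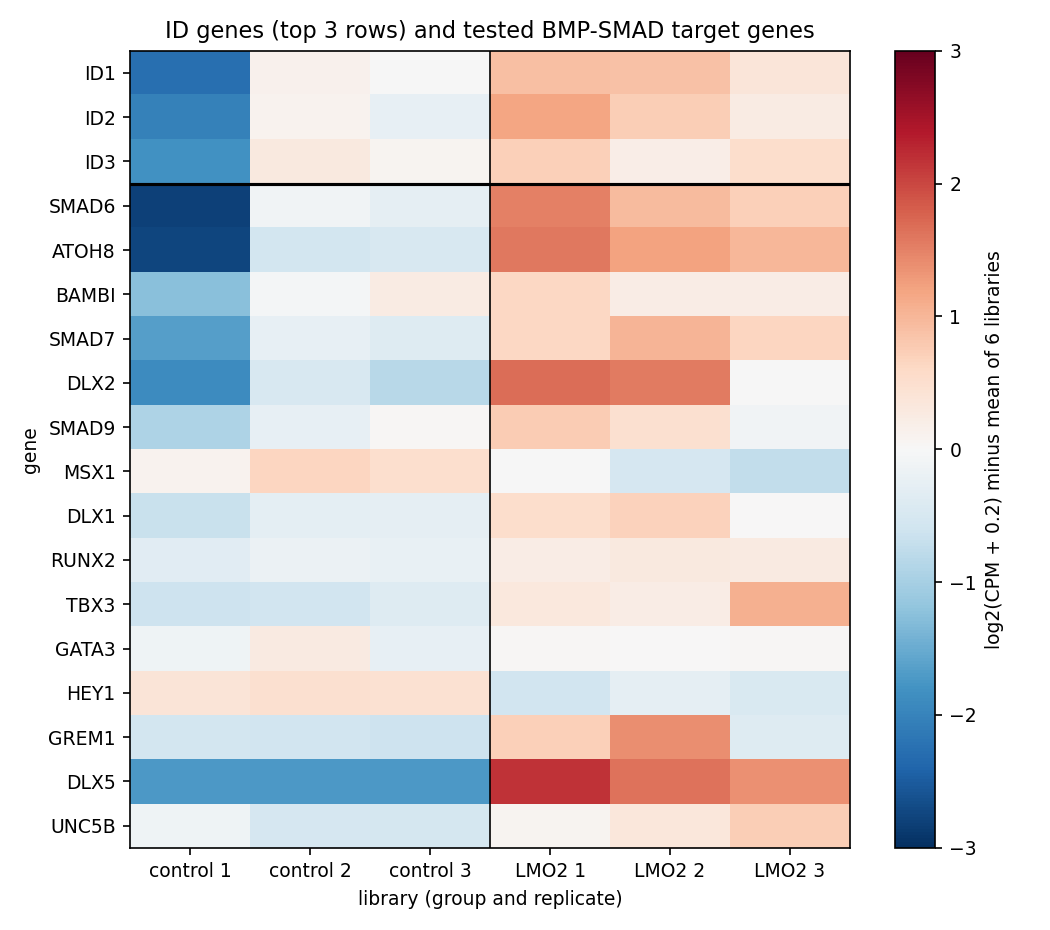
Colours give log2(CPM + 0.2) of each gene minus its mean over the 6 libraries, for ID1, ID2 and ID3 (above the black line) and the 15 tested BMP-SMAD target genes, ordered by how far control replicate 1 lay below the other controls. Control replicate 1 is dark blue for the ID genes, SMAD6, ATOH8 and DLX2, while DLX5 is equally low in all 3 controls, where it had 0 counts.

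Of 17 other inputs to the ID genes, 3 were higher and 1 lower, against 4.72% and 2.75% of all tested genes. Without any 1 of the 3 control libraries, none of the 17 was called, in fits that called 102 to 123 of all genes as higher. Without U87MG-LMO2 replicate 1, 2 were higher and 0 lower, against 177 and 48 of all genes. Without U87MG-LMO2 replicate 3, 4 were higher and 3 lower, against 1307 and 1102 of all genes. SOCS3 had 45.3 to 48.5 CPM in the controls against 75.5, 73.1 and 100.7 CPM with LMO2, a log2 fold change of 0.84 (edgeR adjusted p 0.0130). EGR1, an immediate early factor, was higher by 1.504 (edgeR adjusted p 0.0312), and TGFB2, a ligand of the TGF-beta branch, by 0.99 (edgeR adjusted p 0.0109). IL6ST, which encodes the cytokine receptor gp130, was lower, at 180.1 to 243.4 CPM in the controls against 115 to 133.9 CPM with LMO2 (edgeR adjusted p 0.0207). STAT3 itself had 140 to 150.4 CPM in the controls and 117.7 to 152.2 CPM after LMO2 (edgeR adjusted p 0.582). In control replicate 1, EGR1 stood at 118.3% of the other controls.

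Genes known to respond to ID proteins gave no call among 3 tested. CDKN1A, a cell cycle inhibitor that E proteins activate, had 179.7 to 203.4 CPM in the controls against 202.5 to 230.2 CPM with LMO2 (edgeR adjusted p 0.250). CDH1 (E-cadherin) had 2.10 to 2.37 CPM in the controls and 2.47 to 2.99 CPM in U87MG-LMO2 (edgeR adjusted p 0.391). THBS1, which ID1 represses in other cells, had 2.17, 1.83 and 2.20 CPM in the controls against 6.04, 13.9 and 2.59 CPM with LMO2 (edgeR adjusted p 0.0754). Over all the lists of partners, regulators and targets, 88 of 137 distinct genes were tested, of which 18 were higher (4.72% of all tested genes) and 2 lower (2.75%) in U87MG-LMO2. Fits without 1 library called 1 to 29 of them as higher and 0 to 5 as lower. The fewest were higher without control replicate 3 and the most without U87MG-LMO2 replicate 3, fits that called 102 and 1307 of all genes as higher.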

How the data were processed

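RNA-seq of U87MG-control and U87MG-LMO2 cells (n = 3 libraries each) was used as deposited. The authors deposited, per library, an expected count (an estimate of reads per gene, not normalized) and an FPKM (scaled to gene length and mapped reads). The submitters' processing notes name Bowtie2, BWA and GRCh38.p12, and the counting program is not given in the sources used here. The authors' comparison table holds group mean FPKM, log2 ratios and probabilities. Its means were used only to check the library tables (within 0.001 FPKM), and 134 genes that differed were left out; U87MG-LMO2 replicate 3 had 3 unreadable lines. RefSeq named 89.6% of the genes.

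Expected counts were rounded and tested with edgeR 4.0.16 in R 4.3.3 (filterByExpr, TMM, glmQLFit and glmQLFTest, 2-sided), with Benjamini-Hochberg adjustment over 16092 genes and a threshold of 0.05. The scripts were tested on simulated data. ID4 failed the filter, so its summed counts were compared by a rate ratio with an exact interval instead. Sequences and promoters came from RefSeq (GRCh38.p14) and overlaps from GENCODE annotation. The members and lists were chosen with earlier results of these data known. Named were the ID genes, LMO2, the E proteins, list genes that passed the threshold, ligands, receptors and SMADs of at least 5 CPM, and the 3 genes nearest to each ID gene; the other genes named were chosen after their values were seen. Alternatives were DESeq2 1.42.0, upper-quartile scaling, 2 other filters, limma 3.58.1 on log2 FPKM, removal of the GC-content trend, the replicate number as a block, and leaving out each library. Counts of 11428432 to 17892955 per library limit precision, edgeR intervals include the spread between libraries, and the exact interval and the floor of ID4 cover counting error only, since reads are not independent molecules.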

Additional observations from a re-analysis of the deposited data

How the results depend on the processing

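ID1 and ID3 kept their direction and did not pass the threshold in any of 15 alternatives, with adjusted p from 0.102 to 0.339 and from 0.260 to 0.526. ID2 did so in 14 of 15, and passed without U87MG-LMO2 replicate 3 (1.44, adjusted p 0.0380). Leaving out 1 library gave log2 fold changes of 0.67 to 1.48 for ID1, 0.84 to 1.67 for ID2, 0.30 to 1.06 for ID3 and 1.10 to 1.22 for the untested ID4. Of all genes, 760 were called higher and 443 lower; leaving out 1 library gave 102 to 1307 and 42 to 1102, DESeq2 gave 685 lower, and removal of the GC-content trend gave 505 higher. Of the list genes, 18 and 2 were called, and leaving out 1 library gave 1 to 29 and 0 to 5. The cause was not tested.

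The replicate numbers did not pair the libraries (correlations of -0.11, 0.00 and -0.04). With the replicate block, ID1 was 1.36, ID2 1.33 and ID3 0.91 on the log2 scale, none past the threshold, and 387 genes were called higher and 189 lower, with 10 and 1 of the list genes. With the block and the GC-content trend removed, 197 and 105 genes and 6 and 0 list genes were called. ID4, which fails the filter, had a value with DESeq2, without the filter and with 1 library left out, and in no other alternative. Depth limits ID4 alone, at 2 to 6 counts.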
